A study of Mus musculus with 11 samples.

Results

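Natural killer (NK) cells lacking lactate dehydrogenase A (LDHA) were compared with wild-type NK cells in the libraries titled D0, which make up 5 of the 11 libraries of the series: 3 from LDHA-deficient cells (KO D0 1, 2 and 3) and 2 from wild-type cells (WT D0 2 and 3). All were RNA-seq libraries from mouse NK cells sorted as TCRb-, CD3e-, NK1.1+, DX5+ and Ly49H+ from the spleens of C57BL/6 mixed bone marrow chimeras, in which wild-type cells carried CD45.1 and LDHA-deficient cells CD45.2; by the labels each library stood for an individual mouse. The members were taken from the titles, which give genotype, D0 or D2 and a number; the genotype label of the wild-type-titled samples reads both ways, so the title decided. The labels give mouse cytomegalovirus (MCMV) infection as the treatment and day 2 as the time after infection for all 11 libraries, those titled D0 included, so whether the D0 mice were infected is not settled by the labels. The other 6 libraries, titled D2, hold 3 of each genotype and serve here only as a second look at the same genes. The labels do not name the system that deleted Ldha, nor the age of the mice.

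LDHA is the subunit of lactate dehydrogenase that favours the conversion of pyruvate to lactate, which regenerates NAD+ and lets glycolysis run at a high rate. Ly49H, encoded by Klra8, is the activating NK receptor that recognises an MCMV protein on infected cells, and NK cells carrying it expand during infection and turn up glycolysis when activated. Resting NK cells are thought to depend on it less. In mixed chimeras the genotypes develop side by side in 1 host and are told apart by the alleles of CD45, the product of Ptprc on chromosome 1. A CD45.1 congenic strain usually carries, with its Ptprc allele, a flanking stretch of chromosome 1 from another strain. Genotype at Ldha and CD45 allele cannot be told apart in this design.

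Ldha was read first because it checks the labels. It stood at 91.1, 103 and 104 CPM (counts per 1000000 counts of the library, scaled by trimmed mean of M-values factors) in KO D0 1, 2 and 3 and at 563 and 656 CPM in WT D0 2 and 3. Every LDHA-deficient library was far below both wild-type ones, and the group means were 99.4 ± 7.16 CPM (SD, n = 3) and 609.5 ± 66.2 CPM (SD, n = 2). The LDHA-deficient mean was 16.3% of the wild-type mean, and the fitted log2 fold change was -2.62 (standard error 0.12, adjusted p = 3.8e-07, edgeR's quasi-likelihood test). Transcript was still counted in all 3 LDHA-deficient libraries, and in sorted cells measured in bulk a smaller share of expressing cells and less RNA per cell cannot be told apart. Of the 31-base stretches of the longest Ldha transcript, 34.2% also occur in other annotated genes, 15.1% in Gm5452, and the sources used here do not say how reads from them were assigned. At D2 wild-type Ldha averaged 2903 CPM and LDHA-deficient Ldha 109.6 CPM, a log2 fold change of -4.73 (adjusted p = 4.1e-10).

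Library totals ran from 19452460 to 27992092 deposited counts over the series, with both extremes at D0. The days in the titles differed in Gzmb: the granzyme B gene averaged 1147 CPM in WT D0 and 31255 CPM in WT D2. Sort markers did not separate the genotypes: Klrb1c (NK1.1) stood at 1681, 1489.8 and 1429 CPM against 1649.7 and 1519 CPM, and Itga2 (DX5) at 238, 204 and 239 CPM against 209.8 and 197 CPM. Klra8 spread from 399 to 1254 CPM within the LDHA-deficient group alone, against 1286 and 1064 CPM in wild type (log2 fold change -0.52, standard error 0.31). It was lower past the adjusted threshold only in fits with a replicate block within day, given below. Summed T-cell, innate lymphoid, monocyte, dendritic and neutrophil markers overlapped between the genotypes, stromal and endothelial markers were nearly all Pecam1 with Col3a1 at 0, and Cd3e stayed between 0.279 and 0.693 CPM in the D0 libraries. Erythroid and platelet genes summed to between 106 and 928 CPM with the highest values in KO D0 2 and WT D0 2. B-cell and plasma-cell markers summed to 51.7 CPM in WT D0 2 and to between 7.49 and 12.3 CPM in the other 4 D0 libraries. Jchain alone made up 45.1 CPM of the WT D0 2 sum. The first principal component, with 45.3% of the variance over the 5 libraries, placed KO D0 1 and KO D0 3 at its opposite ends and not the genotypes.

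Of 13711 genes tested, 21 (0.153%) passed a Benjamini-Hochberg adjusted p of 0.05 for LDHA-deficient against wild-type cells at D0. Of these, 13 (0.0948%) were higher and 8 (0.0583%) lower in LDHA-deficient cells; "called" below means passing that threshold. They comprised surface molecules of NK cells (Ncr1, Cxcr4 and Tnfsf4), the class I genes H2-Q6 and H2-Q7, genes known as p53 targets (Ptprv, Phlda3, Btg2 and Trp53cor1), mitochondrial genes (Sfxn2, Cdk5rap1 and Cox6b2) and others. No gene list for glycolysis, the tricarboxylic acid cycle or the respiratory chain had a called member. Cox6b2, a called gene of a cytochrome c oxidase subunit, was in none of these lists. At an unadjusted p under 0.05, 597 genes (4.35%) differed, 408 (2.98%) higher and 189 (1.38%) lower. DESeq2 called 38 genes, 25 higher and 13 lower, and kept all 21. The number called rests on single libraries: it was 4 without KO D0 2, 4 without WT D0 2, 7 without WT D0 3, and 13, 11, 11 and 10 without KO D2 1, KO D2 2, KO D2 3 and WT D2 3, which share the estimate of the spread. Ldha, Ptprv, Serpine2 and 9530053A07Rik were called whichever of the 11 libraries was left out. In a fit of the 5 D0 libraries alone 3 of the 21 were called, Ldha, Ptprv and 9530053A07Rik, and Serpine2 was not (adjusted p = 0.12).

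**Figure D1:**
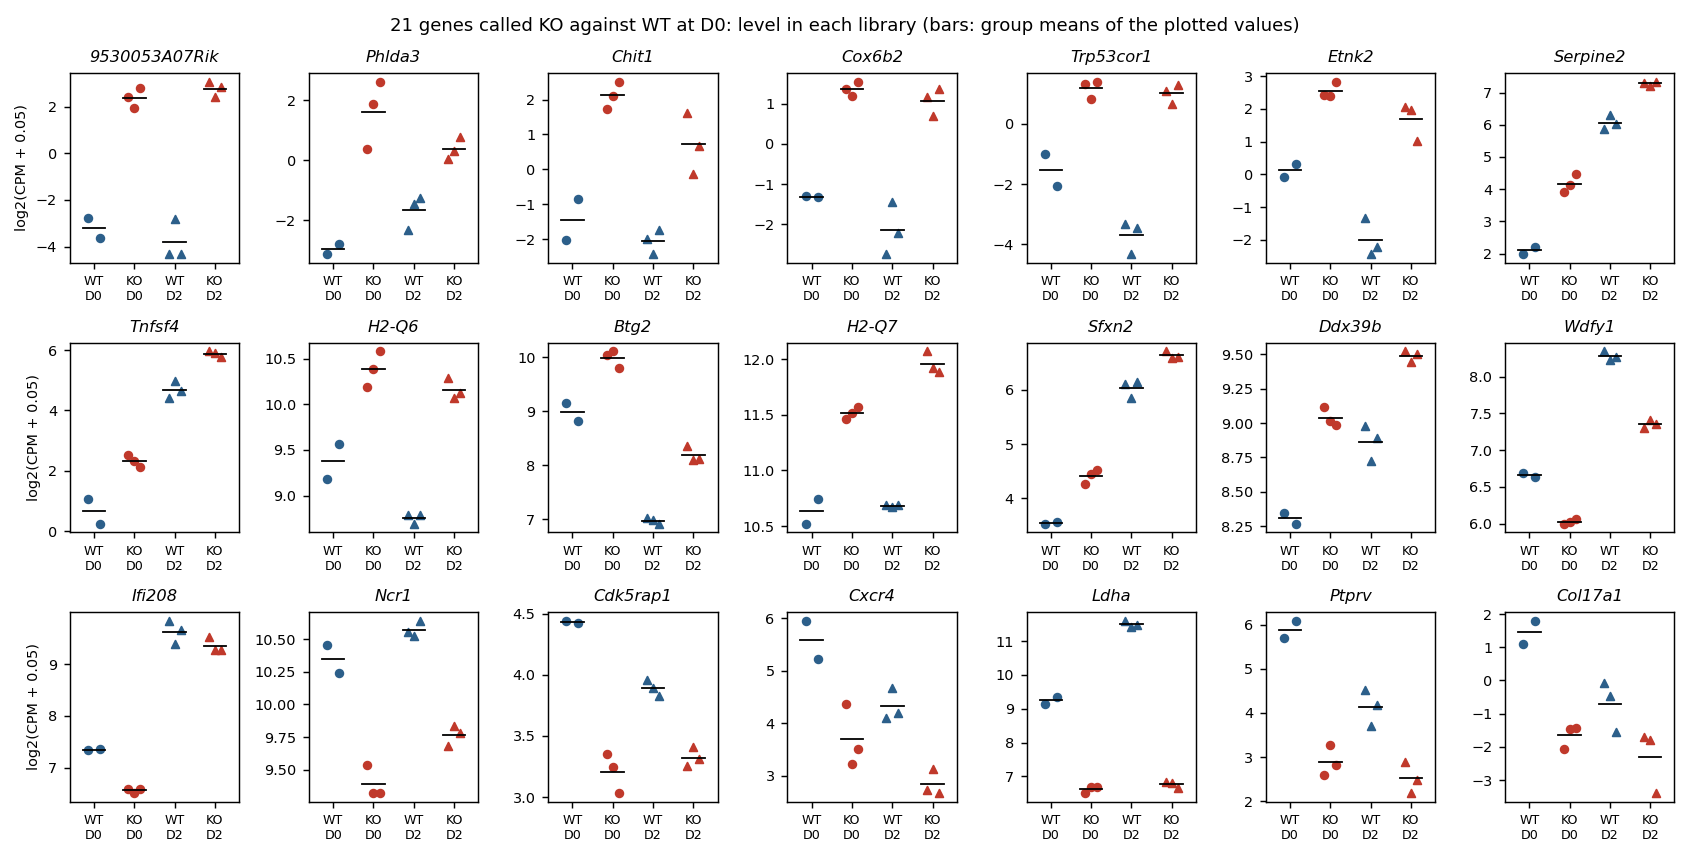
Level of the 21 genes called at D0 in each of the 11 libraries, as log2(CPM + 0.05) on the vertical axes, with wild type in blue, LDHA-deficient in red, D0 as circles, D2 as triangles and group means of the plotted values as bars. The D0 circles of the genotypes do not overlap in any panel, and for Ldha the gap is wider at D2, where the wild-type triangles sit higher.

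The libraries of the genotypes did not overlap at D0 for any of the 21 called genes, a property shared by 10.6% of all tested genes in the higher direction and 5.91% in the lower. At D2, in libraries that share none of the D0 samples, 19 of the 21 were called in the same fit, against 2207 of 13711 genes (16.1%) overall. These 19 are 90.5% of the D0 calls and 0.861% of the D2 calls. All 21 kept their sign at D2. The exceptions to the D2 call were Ifi208, with a log2 fold change of -0.28 (adjusted p = 0.16), and Col17a1, with -1.77 (adjusted p = 0.069). A test of the difference between the genotype effects at D2 and D0 passed for 801 genes (5.84%) of all tested and for 1 of the 21, Ldha.

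**Figure D2:**
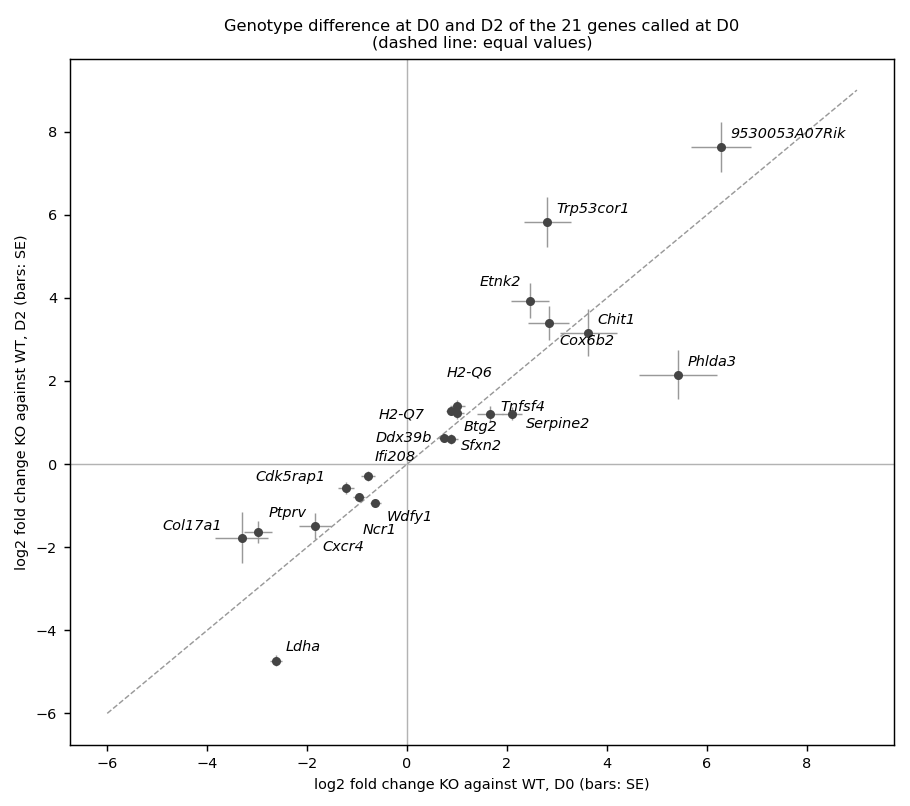
Fitted log2 fold change of LDHA-deficient against wild-type cells at D0 (horizontal axis) and at D2 (vertical axis) for the 21 genes called at D0, with standard errors as bars and a dashed line of equal values. All 21 points lie in the quadrants of equal sign; Ldha, at -2.62 and -4.73, is the 1 whose difference between days passed its test.

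Among NK surface receptors, Ncr1 was lower in LDHA-deficient cells. Ncr1 encodes NKp46, an activating receptor that marks NK cells, and its promoter drives Cre in a deleter strain in wide use for NK cells. It lies at chr7:4337715-4345184 on GRCm38.p6, the RefSeq assembly from which all positions here are taken. Its level was 742, 641 and 639.9 CPM in KO D0 1, 2 and 3 and 1408 and 1208 CPM in WT D0 2 and 3, so each LDHA-deficient library held less than either wild-type one. The log2 fold change was -0.96 (standard error 0.12, adjusted p = 0.0063), with a mean at 51.6% of wild type. The call was lost without KO D0 2 (adjusted p = 0.051) or WT D0 2 (adjusted p = 0.074). At D2 the difference was -0.80, and the effects at D0 and D2 differed by 0.15 (standard error 0.16, adjusted p = 0.74).

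Ncr1 was the 1 called member of 30 tested NK receptor genes, whose median log2 fold change was -0.18 against 0.02 over all tested genes. At unadjusted p under 0.05, 3 of the 30 were lower and 0 higher, where the shares over all tested genes were 1.38% and 2.98%. The other two were Klrk1, encoding NKG2D, at -0.31 (standard error 0.13), and Klra9, of the Ly49 family, at -0.69 (standard error 0.31). After a per-library correction for transcript GC content, described below, the list's median was -0.01. Relative to the mean of the 5 D0 libraries, the median receptor gene stood at 0.29, -0.08 and -0.35 on the log2 scale in KO D0 1, 2 and 3 and at 0.23 and 0.06 in WT D0 2 and 3, so KO D0 1 lay above both wild-type libraries. Ly49 genes are close paralogs among which reads can be shared. In edgeR with the library number as a replicate block within day, further NK receptor genes were called lower. Among them were Klra8 (log2 fold change -1.05, adjusted p = 0.015), Klrc1 (-1.32, adjusted p = 0.015) and Klrk1 (-0.42, adjusted p = 0.0496). With a GC offset added, Klra3, Klra8 (-0.69, adjusted p = 0.021), Klra9 and Klrc1 stayed called. KO D0 1 has no wild-type library of its number, and the labels do not say that numbers pair samples.

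Cxcr4 (chr1:128588199-128592299), the receptor for the chemokine CXCL12 that holds lymphocytes in bone marrow, was lower in LDHA-deficient cells. It stood at 20.6, 9.28 and 11.3 CPM in the LDHA-deficient libraries and 61.6 and 37.1 CPM in the wild-type ones. The groups did not overlap, although each spread widely, and the log2 fold change was -1.84 (standard error 0.32, adjusted p = 0.048). The value at D2 was -1.49 (adjusted p = 0.0040). Tnfsf4 (chr1:161395438-161418206), encoding OX40 ligand, a costimulatory member of the tumour necrosis factor family, was higher: 5.73, 4.96 and 4.34 CPM against 2.04 and 1.14 CPM. Each LDHA-deficient library exceeded both wild-type ones, with a log2 fold change of 1.66 (standard error 0.26, adjusted p = 0.027). At D2 Tnfsf4 averaged 59.2 CPM in LDHA-deficient and 25.8 CPM in wild-type cells, a log2 fold change of 1.20. Of the 11 fits that left out 1 library, the Cxcr4 call was kept only without KO D0 1, WT D2 1 or WT D2 2, with adjusted p of 0.076 to 0.35 (the highest without WT D0 2) when any other was left out. That of Tnfsf4 was kept only without KO D0 3, WT D2 1 or WT D2 2, with adjusted p of 0.068 to 0.50 (the highest without WT D0 3) when any other was left out. Both also ended under a filter of at least 5 CPM (adjusted p = 0.10 and 0.055). Cxcr4 was the 1 called gene of 19 homing and adhesion genes, whose median was -0.01, and 0 others passed an unadjusted p of 0.05. Ccr2, a chemokine receptor gene, was at -0.51 (standard error 0.26). In edgeR with the replicate block within day Ccr2 was called at -0.86 (adjusted p = 0.042), but not with a GC offset added.

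Effector and signalling genes of NK cells gave 0 calls. Of 18 effector genes (granzymes, perforin, cytokines and chemokines) 0 passed the adjusted threshold, and at unadjusted p under 0.05 Gzmb was lower and Tnf, the gene of tumour necrosis factor, higher. Gzmb read 843, 994 and 895 CPM against 1074 and 1220.2 CPM (log2 fold change -0.33, standard error 0.13, adjusted p = 0.999). All 3 LDHA-deficient values were below both wild-type values, a gap that did not pass the threshold. Tnf had a log2 fold change of 0.64 (standard error 0.27), and the list's median was 0.10. The 16 adaptor and kinase genes downstream of NK receptors had a median of 0.03, and the 18 tested NK transcription factor genes a median of 0.16, each with 0 genes at unadjusted p under 0.05. Of 27 cytokine receptor, STAT and SOCS genes (median 0.01) 1 passed the unadjusted threshold, Ifngr1, a chain of the interferon-gamma receptor, at -0.37 (standard error 0.15). DESeq2 also called 0 genes in these 4 lists.

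The class I genes H2-Q6 and H2-Q7 were higher in LDHA-deficient cells. They belong to the Qa-2 group of nonclassical major histocompatibility complex molecules and lie near each other at chr17:35424850-35430055 and chr17:35439140-35443773. Their promoters are printed because both genes moved together and share the elements by which class I genes are commonly read. Each line gives the first 250 bases of the RefSeq promoter window on the plus strand of GRCm38.p6, at chr17:35424600-35424849 for H2-Q6 and chr17:35438905-35439154 for H2-Q7. Capitals mark exact matches, on either strand, to the kappaB site of class I promoters (the first run of capitals in each line), to GAANNGAAA (the core of an interferon response element, here on the other strand) and to CCAAT (read as ATTGG on the other strand).
H2-Q6: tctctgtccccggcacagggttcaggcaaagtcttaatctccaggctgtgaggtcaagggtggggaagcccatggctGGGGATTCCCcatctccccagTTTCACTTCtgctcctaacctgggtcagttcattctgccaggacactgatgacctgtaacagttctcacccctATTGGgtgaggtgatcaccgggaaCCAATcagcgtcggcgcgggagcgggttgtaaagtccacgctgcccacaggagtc
H2-Q7: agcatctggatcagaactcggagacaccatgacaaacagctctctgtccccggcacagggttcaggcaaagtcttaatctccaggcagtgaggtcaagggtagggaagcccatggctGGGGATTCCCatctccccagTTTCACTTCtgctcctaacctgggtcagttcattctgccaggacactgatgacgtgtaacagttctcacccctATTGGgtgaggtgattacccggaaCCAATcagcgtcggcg
The full windows, which run past the 250 bases printed, matched at 254 of 261 aligned positions (97.3%), with 6 substitutions and 1 gap. The printed H2-Q7 line itself ends past the gene start given above. That kappaB sequence occurs in 0.0852% of all 32851 promoter windows in the table, GAANNGAAA in 6.31% and CCAAT in 33.8%. A match describes the letters only.

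H2-Q7 stood at 2829, 2938 and 3041 CPM in KO D0 1, 2 and 3 and at 1471 and 1712 CPM in WT D0 2 and 3. H2-Q6 stood at 1173, 1338 and 1532 CPM and 583 and 758 CPM in the same order. For both genes the lowest LDHA-deficient library exceeded the highest wild-type one. The log2 fold change was 0.88 for H2-Q7 (standard error 0.11, adjusted p = 0.0089) and 1.01 for H2-Q6 (standard error 0.15, adjusted p = 0.021). The differences were 1.28 and 1.41 at D2. The H2-Q7 call was lost without KO D0 2 (adjusted p = 0.060) or WT D0 2 (adjusted p = 0.15); the H2-Q6 call was lost without KO D0 2 (0.11), WT D0 2 (0.22), WT D0 3 (0.053), KO D2 2 (0.055), KO D2 3 (0.073) or WT D2 3 (0.069), adjusted p in parentheses. The paired genes are not independent: 18.4% of the 31-base stretches of H2-Q6 occur in H2-Q7, 50.3% of those of H2-Q6 and 39.9% of those of H2-Q7 occur in some other gene, and how the counting divided such reads is not given in the sources used here.

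They were 2 called genes of 21 tested class I and antigen-processing genes, whose median was 0.04. H2-Q10, a further gene of the cluster, went the other way at an unadjusted p of 0.025 (log2 fold change -0.57, standard error 0.22), and H2-Q4 was at 0.26 (standard error 0.12). Ddx39b (chr17:35241746-35253707), an RNA helicase gene for splicing and mRNA export that sits in the same complex on chromosome 17, was higher as well, at 556, 517 and 506 CPM against 325 and 308 CPM. Its log2 fold change was 0.73 (standard error 0.11, adjusted p = 0.027), and 0.62 at D2. With 1 library left out the call was kept only without KO D0 3, WT D2 1 or WT D2 2, with adjusted p of 0.068 to 0.46 (the highest without WT D0 3) when any other was left out, and it ended under the GC correction (adjusted p = 0.20).

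Among genes of innate sensing, Ifi208 and Wdfy1 were lower. Ifi208 (chr1:173673628-173698393) is an interferon-inducible PYHIN gene, and Wdfy1 (chr1:79702262-79776143) encodes an endosomal adaptor of Toll-like receptor signalling. Ifi208 read 96.2, 91.4 and 96.5 CPM in the LDHA-deficient and 163 and 164 CPM in the wild-type libraries, and Wdfy1 63.9, 64.7 and 66.6 CPM against 103 and 99.0 CPM. Spread within each group was small for both, and the groups were far apart relative to it. The log2 fold changes were -0.79 for Ifi208 (standard error 0.14, adjusted p = 0.048) and -0.63 for Wdfy1 (standard error 0.10, adjusted p = 0.033). With 1 library left out the Ifi208 call was kept only without WT D2 1 or WT D2 2, with adjusted p of 0.058 to 0.43 (the highest without WT D0 3) when any other was left out. The Wdfy1 call was kept only without KO D0 3 or WT D2 1, with adjusted p of 0.056 to 0.21 (the highest without WT D0 3) when any other was left out. The Ifi208 call also ended under relative log expression scaling (adjusted p = 0.067), a filter of at least 5 CPM (0.075) and the GC correction (0.082). Ifi208 shares 42.1% of its 31-base stretches with other genes, 36.4% with Ifi213, and Wdfy1 overlaps Mrpl44, which was at 0.05.

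Ifi208 was the 1 called gene of 11 tested PYHIN genes, and Ifi209 was lower at an unadjusted p of 0.048 (log2 fold change -0.45). Of the 11, 3 had a positive value, against 53.9% of all tested genes, the highest being Ifi207 at 0.90. The median of the 11 was -0.27, or -0.12 after correction for GC content. With a replicate block within day edgeR also called Mndal, Ifi203, Ifi209, Ifi213 and Ifi214 lower, but not with a GC offset added. The LDHA-deficient libraries went opposite ways: relative to the mean of the 5 D0 libraries, the median PYHIN gene stood at 0.38, -0.14 and -0.54 on the log2 scale in KO D0 1, 2 and 3 and at 0.28 and 0.14 in WT D0 2 and 3. In 33 other interferon-stimulated genes 0 were called and the median was 0.06. Trim25, a ubiquitin ligase of RIG-I signalling, had the smallest p of these at 0.47 (standard error 0.13, adjusted p = 0.76), and Oasl2 was at 0.36 (standard error 0.14). DESeq2 called 0 of the 33.

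Genes known to be switched on by p53, the stress-induced transcription factor, did not move one way. Ptprv, encoding a receptor-type phosphatase that p53 induces in mouse cells, was lower at 6.03, 9.60 and 7.02 CPM against 51.7 and 67.7 CPM. The lowest wild-type value was far above the highest LDHA-deficient one. The log2 fold change was -2.98 (standard error 0.28, adjusted p = 0.00055), and -1.63 at D2. Ptprv lies at chr1:135108498-135132575 and overlaps Ptpn7, another phosphatase gene, which was at 0.23 (standard error 0.19).

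Phlda3 (chr1:135766085-135769134), which encodes an inhibitor of AKT recruitment to membranes, was higher. It read 1.24, 3.66 and 6.10 CPM in the LDHA-deficient and 0.0646 and 0.0949 CPM in the wild-type libraries. The LDHA-deficient libraries differed widely among themselves, KO D0 3 being highest, yet KO D0 1 still exceeded both wild-type ones. In counts this was 270 counts over 3 libraries against 5 over 2, a ratio of summed rates of 43.9 (95% exact Clopper-Pearson interval 18.6 to 136, counting error only). The log2 fold change was 5.42 (standard error 0.78, adjusted p = 0.019) and depends on the prior count at such low levels. The call was lost without KO D0 2, WT D0 2 or WT D0 3, with adjusted p of 0.072, 0.17 and 0.31. At D2 the value was 2.15 (adjusted p = 0.025).

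Btg2 (chr1:134074865-134079155), an antiproliferative gene that also responds within minutes to cell stimulation, was higher at 1053, 1108 and 895 CPM against 572 and 451 CPM. The LDHA-deficient mean was 1.99 times the wild-type mean, with no overlap of libraries (log2 fold change 0.99, standard error 0.14, adjusted p = 0.019). At D2 Btg2 averaged 292 CPM in LDHA-deficient and 125 CPM in wild-type cells (adjusted p = 8.8e-05). Its call was lost without KO D0 2 (0.11), WT D0 2 (0.071), WT D0 3 (0.41), KO D2 3 (0.056) or WT D2 3 (0.061), adjusted p in parentheses. Trp53cor1 (chr17:29057474-29079126), the long noncoding RNA lincRNA-p21 made beside Cdkn1a, was higher at 2.47, 1.74 and 2.59 CPM against 0.452 and 0.190 CPM (172 counts against 20). The log2 fold change was 2.80 (standard error 0.47, adjusted p = 0.039), and 3.51 without WT D0 2. The call was kept only without WT D2 1 or WT D2 2, with adjusted p of 0.068 to 0.82 (the highest without WT D0 3) when any other was left out. At D2 the wild-type mean was 0.0304 CPM and the log2 fold change 5.83, but the difference of the effects did not pass (adjusted p = 0.059).

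Cdkn1a, the gene of the cell cycle inhibitor p21, read 32.1, 34.8 and 24.4 CPM against 19.4 and 9.93 CPM. Its libraries did not overlap, but at a log2 fold change of 1.05 (standard error 0.25) the adjusted p was 0.32 by edgeR and 0.015 by DESeq2. In the list of 22 tested p53 targets, 2 were called higher (Phlda3 and Btg2) and 1 lower (Ptprv). At unadjusted p under 0.05 the counts were 3 and 2, where the shares over all tested genes were 2.98% and 1.38%. Rrm2b, a ribonucleotide reductase subunit gene, was the second of the lower ones at -0.46. The list's median was -0.01. Trp53cor1 was not in that list. Ptprv, Phlda3 and Btg2 all lie on chromosome 1 within 25 Mb of Ptprc.

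The called mitochondrial genes were of different kinds. Sfxn2 (chr19:46573325-46596901), of the sideroflexin family of inner-membrane carriers, was higher at 19.1, 21.7 and 22.9 CPM against 11.5 and 11.7 CPM (log2 fold change 0.87, standard error 0.14, adjusted p = 0.034). Cdk5rap1 (chr2:154222011-154373038), whose product modifies mitochondrial transfer RNAs, was lower at 10.2, 9.42 and 8.13 CPM against 21.7 and 21.4 CPM (log2 fold change -1.22, standard error 0.16, adjusted p = 0.0089). Cox6b2 (chr7:4751792-4753094), the testis form of a cytochrome c oxidase subunit, was higher at 2.51, 2.23 and 2.86 CPM against 0.356 and 0.348 CPM, which is 193 counts against 22 (log2 fold change 2.83, standard error 0.41, adjusted p = 0.019). In all 3 genes the wild-type libraries lay close together and apart from the LDHA-deficient ones. Their D2 values were 0.60, -0.57 and 3.39 respectively. With 1 library left out the Sfxn2 call was kept only without KO D0 1 or WT D2 2, with adjusted p of 0.053 to 0.46 (the highest without WT D0 3) when any other was left out, and it ended under relative log expression scaling (adjusted p = 0.053). That of Cdk5rap1 was lost without KO D0 2 (0.060), WT D0 2 (0.086) or WT D0 3 (0.083), adjusted p in parentheses. That of Cox6b2 was lost without KO D0 2 (0.072), KO D0 3 (0.052), WT D0 2 (0.17) or WT D0 3 (0.32), adjusted p in parentheses. Cox6b2 was the 1 called gene among 89 tested within 10 Mb of Ncr1.

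Among the remaining calls, Serpine2, the gene of the protease inhibitor nexin (chr1:79794317-79858665), rose. It read 14.9, 17.4 and 22.2 CPM against 3.91 and 4.59 CPM, 4.28 times the wild-type mean (log2 fold change 2.09, standard error 0.20, adjusted p = 0.00055). By D2 it averaged 156 CPM in LDHA-deficient and 67.4 CPM in wild-type cells, a log2 fold change of 1.21. The genotype effects at D2 and D0 differed by -0.89 without passing the threshold (adjusted p = 0.054).

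9530053A07Rik (chr7:28129466-28164811), which shares 15.8% of its 31-base stretches with Fcgbp, was higher at 5.36, 3.87 and 6.93 CPM against 0.0970 and 0.0316 CPM. In counts this was 404 counts against 4, a ratio of summed rates of 82.0 (95% exact Clopper-Pearson interval 31.8 to 303, counting error only). The fitted log2 fold change was 6.28 (standard error 0.60, adjusted p = 0.00055), depends on the prior count, and was 7.17 without WT D0 2. Etnk2 (chr1:133363463-133380318), an ethanolamine kinase gene of phospholipid synthesis, read 5.32, 5.16 and 7.02 CPM against 0.905 and 1.20 CPM. Chit1 (chr1:134111242-134151541), a chitinase gene best known from macrophages, read 3.30, 4.26 and 5.64 CPM against 0.194 and 0.506 CPM. Their LDHA-deficient libraries were all above the wild-type ones, with log2 fold changes of 2.46 (standard error 0.38, adjusted p = 0.027) and 3.62 (standard error 0.57, adjusted p = 0.027). The Etnk2 call was lost without KO D0 2 (0.11), KO D0 3 (0.086), WT D0 2 (0.26), WT D0 3 (0.31), KO D2 2 (0.064) or WT D2 3 (0.069), adjusted p in parentheses. The Chit1 call was lost without KO D0 2 (0.12), KO D0 3 (0.086), WT D0 2 (0.26), WT D0 3 (0.18), KO D2 3 (0.074) or WT D2 3 (0.069), adjusted p in parentheses, and its log2 fold change was 4.45 without WT D0 3. At D2 the values of 9530053A07Rik, Etnk2 and Chit1 were 7.63, 3.93 and 3.16. Monocyte and macrophage markers summed to 23.04, 41.0 and 45.2 CPM in the LDHA-deficient and 61.2 and 40.6 CPM in the wild-type libraries. The part of such cells in the Chit1 difference was not tested.

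Col17a1 (chr19:47646341-47692042), a collagen gene of hemidesmosomes, was lower at 0.187, 0.314 and 0.323 CPM against 2.10 and 3.42 CPM, or 21 counts against 173. Its mean was 9.97% of wild type (log2 fold change -3.31, standard error 0.53, adjusted p = 0.031). The call was kept only without KO D2 3, WT D2 1, WT D2 2 or WT D2 3, with adjusted p of 0.058 to 0.52 (the highest without WT D0 3) when any other was left out.

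The called genes were unevenly placed. Chromosome 1 held 10 of the 21, from 830 tested genes (1.20%), chromosomes 7 and 17 held 4 each, chromosome 19 held 2 and chromosome 2 held 1. Within 25 Mb of Ptprc (chr1:138062859-138175756) the called genes numbered 7 among 199 tested (3.52%), and beyond it, on all chromosomes, they numbered 14 among 13512 (0.104%). The 7 were Phlda3, Chit1, Etnk2, Btg2 and Tnfsf4, which were higher, and Ptprv and Cxcr4, which were lower. At unadjusted p under 0.05 the shares were 16.6% inside and 4.17% outside that window. A 10 Mb window held 6 called of 96 genes and a 50 Mb window 8 of 456. Within 25 Mb the median log2 fold change was -0.02 and the median of its absolute value 0.19, against 0.02 and 0.16 beyond it. The wild-type cells carried CD45.1 and the LDHA-deficient cells CD45.2, so the effect of the region and that of Ldha cannot be told apart for these 7 genes. The same holds for uncalled genes of the window. Ptprc itself was at 2963, 2569.6 and 1894 CPM against 3102 and 2783 CPM (log2 fold change -0.25, standard error 0.16). Of the 140 genes within 10 Mb of Ldha, 0 were called and 8 passed an unadjusted p of 0.05 (5.71%).

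**Figure D3:**
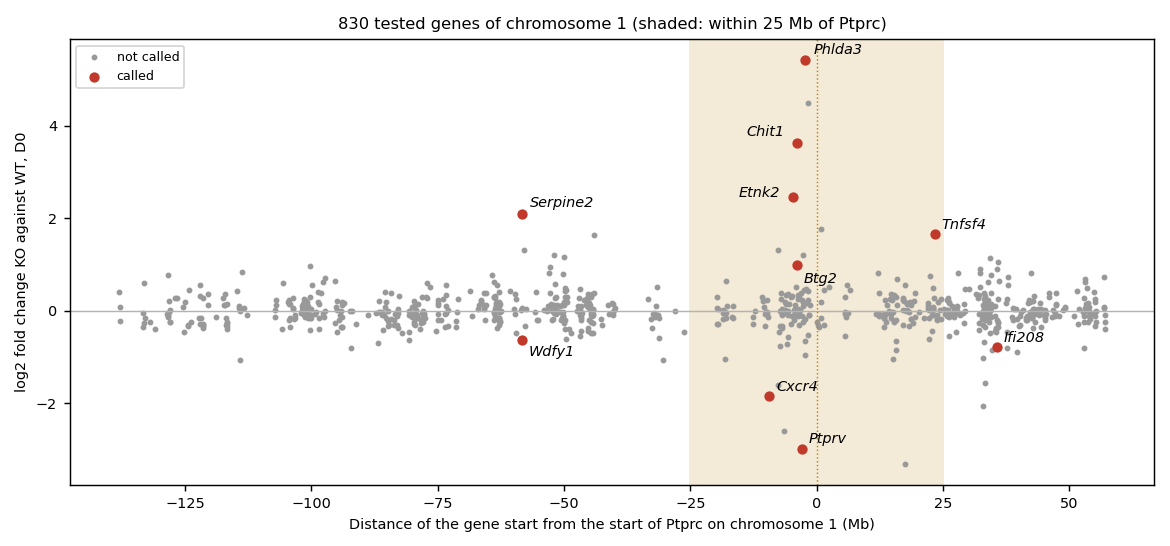
Fitted log2 fold change of LDHA-deficient against wild-type cells at D0 (vertical axis) for the 830 tested genes of chromosome 1, by distance of the gene start from the start of Ptprc in Mb (horizontal axis), with called genes in red and the 25 Mb window shaded. Of the 10 called genes 7 fall in the window, and Serpine2 and Wdfy1 sit close to each other outside it.

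The genes around the lost enzyme gave small differences at D0. Of 8 lactate genes listed, 5 passed the filter on low counts; Ldhb, Ldhc and Ldhd did not. Slc16a1, the lactate carrier MCT1, read 15.5, 19.4 and 15.2 CPM against 20.9 and 17.9 CPM (log2 fold change -0.22, standard error 0.20). Bsg, the chaperone basigin of that carrier, read 231, 245 and 298 CPM against 223 and 268 CPM (log2 fold change 0.07, standard error 0.16). The groups overlapped for both at D0. At D2 both were lower, with log2 fold changes of -1.46 (adjusted p = 0.00022) and -0.93 (adjusted p = 0.00074), and the difference between the effects passed its test for Slc16a1 (adjusted p = 0.025) and Bsg (adjusted p = 0.023). The carriers Slc16a3 and Slc16a7 were at -0.25 (standard error 0.37) and 0.09 (standard error 0.56).

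Of 18 glycolytic enzyme and glucose transporter genes 0 were called, and the median was 0.07. Gapdh, which makes the NADH that LDHA reoxidises, read 890.4, 882 and 1123 CPM against 761 and 786 CPM, with all 3 LDHA-deficient libraries higher (log2 fold change 0.32, standard error 0.14, unadjusted p = 0.035, adjusted p = 0.999). It was the 1 glycolytic gene under an unadjusted p of 0.05; Hk2, a hexokinase gene, was at 0.54 (standard error 0.32) and Pgam1 at 0.24 (standard error 0.12). The list's median rests on the libraries: it ran from -0.11 to 0.24 when 1 of the 11 was left out. The 24 genes of pyruvate entry and the tricarboxylic acid cycle had a median of -0.02 and 1 member under an unadjusted p of 0.05, Dld, the shared subunit of pyruvate and oxoglutarate dehydrogenase, at -0.38 (standard error 0.16). The 10 genes of the NADH shuttles, which carry reducing power into mitochondria, had a median of 0.03 and 0 members under 0.05. The 44 respiratory chain and ATP synthase genes had a median of 0.12 with 34 values above 0, against 53.9% of all tested genes. An unadjusted p of 0.05 was passed by 0 of them, against 4.35% of all tested genes. Ndufv1, a catalytic subunit of complex I, came nearest at 0.32 (standard error 0.15). In these 4 lists the edgeR fit described here, which has no replicate block, and DESeq2 each called 0 genes. With a replicate block within day edgeR called Dld lower (log2 fold change -0.54, adjusted p = 0.048). It also called the respiratory genes Uqcrb (-0.67, adjusted p = 0.046) and Cycs (-0.55, adjusted p = 0.038) lower. With a GC offset added to that block, none of them was called.

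The listed genes of cell division had mostly positive values at D0 and gave 0 calls in the fit without a replicate block. Of 26 mitosis genes 24 had a positive value, against 53.9% of all tested genes, and the median was 0.32. An unadjusted p of 0.05 was passed by 6, all higher, against 2.98% of all tested genes in that direction. Ube2c, a ubiquitin-conjugating enzyme of mitotic exit, read 24.8, 25.2 and 32.5 CPM against 18.7 and 20.2 CPM (log2 fold change 0.50, standard error 0.18, adjusted p = 0.999). All 3 LDHA-deficient libraries were above both wild-type ones for Ube2c; Cdk1, the kinase that starts mitosis, was at 0.42 (standard error 0.18) and Birc5, survivin, at 0.39 (standard error 0.17). The median stayed between 0.23 and 0.34 when 1 library was left out and was 0.32 after correction for GC content; at D2 it was -0.18. Of 30 DNA replication genes, with a median of 0.14, 7 were higher and 1 lower at an unadjusted p under 0.05, where the shares over all tested genes were 2.98% and 1.38%. The lower one was Rfc4, of the clamp loader, at -0.64 (standard error 0.22), and among the higher ones were Mcm10 at 0.51 (standard error 0.19) and Gins2 at 0.50 (standard error 0.18), both of replication initiation. DESeq2 called 0 genes of either list. With a replicate block within day edgeR called further division and replication genes, listed or not. Among those higher were Cdca5 (log2 fold change 0.79, adjusted p = 0.030), Exo1 (0.81, adjusted p = 0.041) and Clspn (0.86, adjusted p = 0.040). Cetn3 (-0.83, adjusted p = 0.039) and Septin2 (-0.68, adjusted p = 0.026) were lower. Of these 5, Exo1 and Clspn stayed called with a GC offset added.

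Immediate early and heat shock genes, which respond within minutes to handling and stimulation, had a median of 0.23 over 30 genes. Of these 25 were above 0, against 53.9% of all tested genes. Btg2 was the 1 called gene and the 1 under an unadjusted p of 0.05; Fos was at 0.57 (standard error 0.32), Nr4a3 at 0.66 (standard error 0.33) and Hspa1b at -1.15 (standard error 1.35). The median depended on the wild-type libraries, at 0.04 without WT D0 3 and 0.48 without WT D0 2. Of 10 amino acid and iron uptake genes (median 0.12) 1 passed an unadjusted p of 0.05, Slc7a1, an arginine carrier, at 0.36. The 14 tested genes of the ATF4 amino acid response had a median of 0.08 and the 15 tested HIF-1 genes one of 0.04, each with 0 members under 0.05. Of 16 antioxidant genes (median 0.01), Nqo1 was the 1 under 0.05, at 1.80 (standard error 0.65) from 0.412, 0.768 and 0.878 CPM against 0.291 and 0.0949 CPM. In these last 4 lists the same edgeR fit and DESeq2 each called 0 genes.

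**Figure D4:**
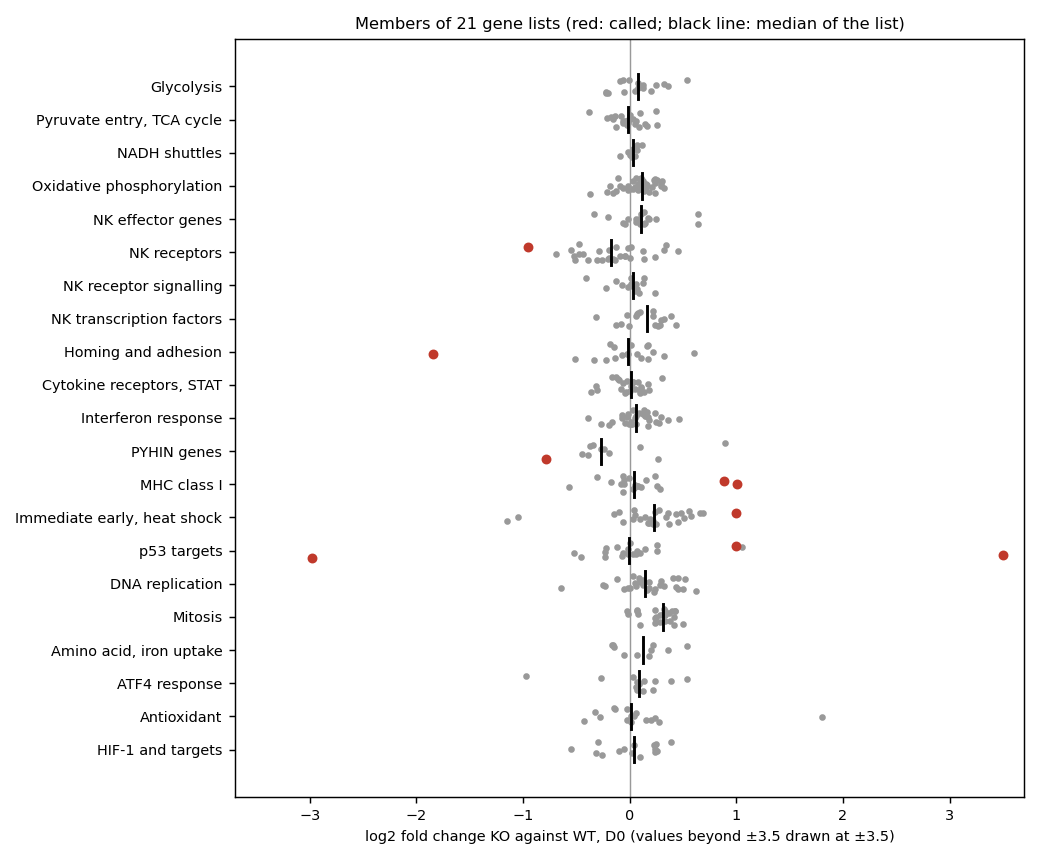
Fitted log2 fold change at D0 (horizontal axis) of each tested gene in 21 lists, with called genes in red, other genes in grey and the list's median as a black line; values beyond 3.5 are drawn at 3.5. Most lists lie around 0, mitosis genes lie mostly above it with a median of 0.32, and PYHIN genes mostly below it with a median of -0.27.

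Just outside the threshold, Cd55, a complement-regulating surface protein gene, read 73.2, 73.1 and 48.3 CPM against 29.2 and 22.7 CPM (log2 fold change 1.32, standard error 0.23, adjusted p = 0.053). Its groups did not overlap, the D2 value was 2.98 (adjusted p = 3.6e-05), and the difference of the effects passed its test (adjusted p = 0.013). The neighbouring gene Cd55b went the other way, at -1.61 (unadjusted p = 0.027) at D0 and -1.94 at D2. Camk2b, a calmodulin-dependent kinase subunit gene, read 43.2, 41.3 and 46.1 CPM against 20.8 and 21.7 CPM (log2 fold change 1.04, standard error 0.19, adjusted p = 0.075). Glul, the glutamine synthetase gene, read 62.1, 59.1 and 61.8 CPM against 41.4 and 34.5 CPM (log2 fold change 0.68, standard error 0.13, adjusted p = 0.10). The groups did not overlap for either gene. The next ones higher, Mirt1, Cep85, Clspn, As3mt, Dbi, Cdkn1a and Slc43a3, had log2 fold changes between 0.61 (Mirt1) and 1.05 (Cdkn1a). Clspn, a gene of the replication checkpoint protein claspin, read 11.4, 10.6 and 12.0 CPM against 6.88 and 5.54 CPM and was the 1 of them whose effect at D2 (-0.12) differed from that at D0 (adjusted p = 0.033). Cd55, Glul and Dbi lie on chromosome 1 within 25 Mb of Ptprc, where the effects of the region and of Ldha cannot be told apart. DESeq2 called all the genes named here as higher except Slc43a3, with adjusted p from 4.3e-05 (Camk2b) to 0.039 (Dbi).

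On the lower side the nearest were Anxa1 and Jchain. Anxa1, an anti-inflammatory annexin gene, read 237, 239.9 and 209 CPM against 343 and 321 CPM (log2 fold change -0.54, standard error 0.11, adjusted p = 0.19). Every LDHA-deficient library was below both wild-type ones, while at D2 the value was 0.16 and the difference of the effects passed (adjusted p = 0.025). Jchain, an immunoglobulin chain gene of plasma cells, read 5.02, 6.77 and 4.80 CPM against 45.1 and 8.57 CPM (log2 fold change -2.27, adjusted p = 0.21). It is itself a B-cell and plasma-cell marker and made up most of their sum of 51.7 CPM in WT D0 2. Cd79a, another of these markers, overlapped at 1.76, 2.30 and 2.59 CPM against 3.36 and 2.34 CPM. The part of B-lineage cells in the Jchain difference was not tested. Rap1gds1, Tnni1, Csrp1, Pisd-ps1, Zfp445, Cacybp, Zfp53 and Cse1l followed, with log2 fold changes from -0.95 (Tnni1) to -0.40 (Cse1l). The effect on Pisd-ps1 and Zfp445 differed between D2 and D0, with adjusted p of 0.045 and 0.029. Tnni1, Csrp1 and Cacybp lie within 25 Mb of Ptprc, with the same limit. Of the genes named on this lower side DESeq2 called Anxa1 (adjusted p = 0.0069), Rap1gds1 (adjusted p = 0.026) and Tnni1 (adjusted p = 0.0499).

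The log2 fold changes at D0 moved with the GC content of the transcript. Over 12819 tested genes with a GC value (93.5%) the median log2 fold change was -0.21 below 40% GC and 0.13 at 60% and above. Single libraries carried this trend in both genotypes: genes below 40% GC stood 0.32 above the D0 mean in KO D0 1 and 0.27 above it in WT D0 2 on the log2 scale, and 0.51 below it (-0.51) in KO D0 3. After a per-library correction for GC, 19 genes were called, 12 higher and 7 lower. Of the 20 called genes with a GC value all kept their sign and 18 their call; Ddx39b (adjusted p = 0.20) and Ifi208 (adjusted p = 0.082) lost it, and Cd55 was called in addition.

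**Figure D5:**
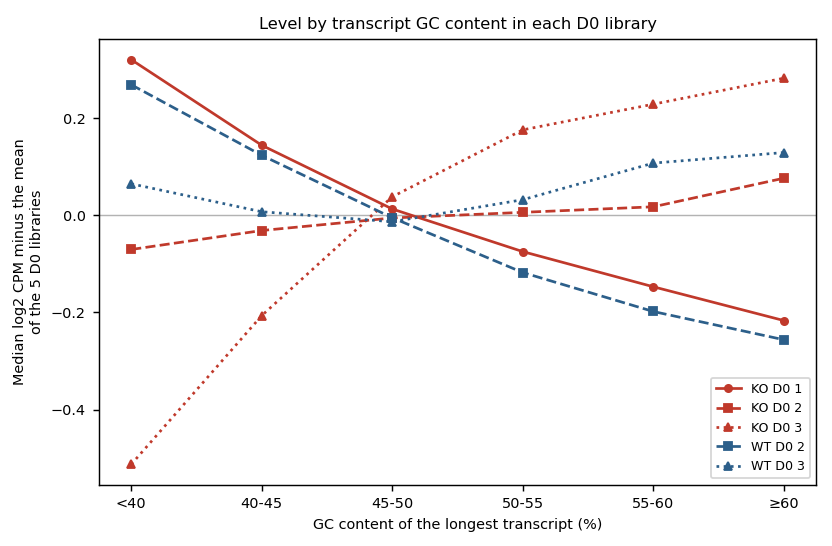
Median log2 CPM of genes in each D0 library, minus the mean of the 5 D0 libraries (vertical axis), by GC content of the longest transcript in percent (horizontal axis), with 1 line per library. KO D0 1 and WT D0 2 slope down from 0.32 and 0.27, KO D0 3 slopes up from -0.51, and KO D0 2 and WT D0 3 lie between them.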

How the data were processed

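RNA-seq libraries of sorted mouse NK cells were deposited by the authors as whole-number counts per Entrez gene ID, 1 column per library. Per the submitters' processing notes the tools were bcl2fastq 2.20.0.422, Trimmomatic 0.36, Salmon 0.13.1 (also listed as 13.1) and DESeq2 1.22.2 with build mm10; their roles, strand setting and any rounding of estimated counts are not given in the sources used here. Per the labels' protocols, 2 ng of RNA per library was amplified with SMART-seq V4. Entrez IDs were matched to symbols and positions in a RefSeq table of GRCm38.p6 (24387 of 24421 matched), and promoter windows came from RefSeq GRCm38.p6. GC content was that of each gene's longest GENCODE transcript.

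Counts as deposited were scaled by trimmed mean of M-values, filtered with filterByExpr (13711 of 24421 genes kept) and tested in edgeR 4.0.16 (R 4.3.3, limma 3.58.1) by the robust quasi-likelihood F test, with all 11 libraries in 1 fit of 4 group means and 7 residual degrees of freedom, and Benjamini-Hochberg adjustment over all tested genes. The contrasts were LDHA-deficient against wild type at D0, the same at D2, and their difference. Standard errors were derived from the fold change and its F value. Over the 5 D0 libraries totals ran from 19452460 to 27992092 counts, where 3 counts equal 0.107 to 0.154 CPM before the scaling factors. The labels state that each sample stands for an individual mouse, but not whether LDHA-deficient and wild-type samples of the same number came from 1 chimera; p-values measure the spread between these samples, and WT D0 has 2. No WT D0 library numbered 1 was analysed here. Lists are described by counts and medians with no set test. The script was tested on simulated counts.

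Genes were named by rule: all called genes; the called or lowest-p member of each list; and 10 uncalled genes per direction with the smallest p, a mean of at least 5 CPM and groups that did not overlap. Further list members under an unadjusted p of 0.05, or next in order, were named after their values were seen. The groups compared, the members and the lists were chosen with earlier results of these data known. Alternatives were other scaling (relative log expression), DESeq2 1.42.0, other filters, only the D0 libraries, replicate numbers as a block, each library left out, chromosome 1 left out and, added after seeing the data, a GC offset.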

Additional observations from a re-analysis of the deposited data

Results flagged for a closer look

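In 8 of the named genes the genotype effect at D2 differed from that at D0 by the test of the difference itself, where 5.84% of all tested genes did. Values are the D2 minus the D0 log2 fold change of LDHA-deficient against wild-type cells. Ldha differed by -2.11. The lactate carrier gene Slc16a1 differed by -1.24 and Bsg, of its chaperone, by -1.0; neither was called at D0. Cd55 differed by 1.66, being higher in LDHA-deficient cells on both days. Clspn differed by -0.98, Anxa1 by 0.70, Pisd-ps1 by 0.73 and Zfp445 by 0.71, and these 4 had D2 values of the opposite sign to D0. Cd55 and these 4 were named for their small p at D0, so the value they were chosen on enters the difference. The genes behind the share of 5.84% were not chosen that way. No cause was tested for any of them, and the D0 groups hold 3 and 2 libraries.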

How the results depend on the processing

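All 21 calls kept their direction in every setting that tested them, whichever library was left out. Against 21 called (13 higher, 8 lower), DESeq2 called 38 (25, 13), a filter of at least 5 CPM left 11 (6, 5), the 5 D0 libraries alone gave 4 (2, 2), of which 3 were among the 21 and 1 was a gene ID with no symbol and leaving out chromosome 1 gave 8 (5, 3). Leaving out 1 library gave 4 to 22 calls, 2 to 14 higher and 2 to 8 lower; where that left 1 wild-type D0 library, it was assumed to vary like the other groups. Relative log expression, no filter and a GC offset gave 19, 22 and 19. Same-numbered libraries correlated by 0.0275 for number 2 and 0.41 for number 3 in their deviations from the group means, with KO D0 1 against WT D0 2 at 0.376. Only 2 numbers are shared, and with 2 wild-type libraries these deviations mirror each other, so they cannot show pairing. Summed erythroid and platelet genes ran in the same order of number in both genotypes. At D0 number 2 read 928 (KO) and 829 CPM (WT) and number 3 read 122 and 198 CPM. At D2 numbers 1, 2 and 3 read 212, 90.5 and 67.8 CPM (KO) and 321, 83.8 and 40.2 CPM (WT). Summed T-cell markers did so at D0 but not at D2. The labels do not say whether a number marks a shared host, and this was not tested. The fit described here left the numbers unpaired. With the replicate block within day 201 genes were called (41, 160), with the block across days 28, and with the block and GC offset together 58 (35, 23); the cause was not tested. Log2 fold changes near 0 turned sign: Slc16a1 to 0.016 (GC offset with the replicate block), Bsg to -0.012 (GC offset) and -0.029 (with the replicate block too), Cd3e to -0.0087 (replicate block) and Hcst to -0.00069 (GC offset with the replicate block). When 1 library was left out, Bsg ran from -0.081 (without WT D0 2) to 0.20 (without WT D0 3), Slc16a7 from -0.077 (without KO D0 3) to 0.21, Cd3e from -0.18 (without WT D0 3) to 0.54, Got2 from -0.034 (without WT D0 2) to 0.24 and Hbb-bs from -2.41 (without KO D0 2) to 0.90 (without WT D0 2); without KO D0 3, Bsg, Cd3e and Got2 were at -0.060, -0.10 and -0.018.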
